A study of Mus musculus with 105 samples.

Results

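Nodal, Gdf3, Tdgf1, Lefty1, Lefty2 and Smad7 are the ligands, the co-receptor, the secreted inhibitors and the intracellular inhibitor of Nodal signalling described here. They were chosen by name and are 6 of the 52108 gene rows in each bulk count table and 6 of the 34120 gene rows in the single-cell table. All 6 passed the filter on low counts in both bulk tables, in which 18871 genes of the parental line and 19885 genes of the deletion lines were tested. RNA came from female mouse embryonic stem cells (mESCs) of the line TX1072, an F1 hybrid of the strains C57BL6/J (B6) and Cast/EiJ (Cast). In TX1072 the B6 copy of Xist stands behind a promoter that responds to doxycycline, the transactivator rtTA sits in Rosa26, and no doxycycline treatment is named in the sources used here. TXdXicB6 and TXdXicCast are derivatives of TX1072, each grown from a single clone, that lack the X-inactivation centre on the B6 or on the Cast X chromosome. Undifferentiated cells (day 0) were kept in serum with LIF and the inhibitors CT-99021 and PD0325901 (2i), and differentiation was started by taking away 2i and LIF on fibronectin. Bulk RNA was sequenced at days 0, 1, 2, 3 and 4 in 3 libraries for each line and day (45 libraries), and single cells of TX1072 were captured from 1 culture on each day.

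Total counts per bulk library lay between 19827011 and 39628784 for TX1072, between 20246434 and 49962859 in TXdXicB6 and between 16906263 and 57920260 in TXdXicCast. Bulk levels are given as CPM (counts scaled to the same library total) after TMM scaling, which removes differences in library composition. TX1072 and the deletion lines were prepared with different kits, so levels are not compared between them and each set was fitted on its own. Changes are log2 fold changes from edgeR's quasi-likelihood test with their standard errors (SE), for 3 libraries against 3, and a change was called at an adjusted p under 0.05 (Benjamini-Hochberg over all genes tested). The 3 TXdXicCast libraries of day 0 were made from RNA that showed degradation and were fragmented more mildly than the other libraries, so every comparison of this line with its day 0 also compares those preparations and the 2 cannot be told apart.

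Nodal is a secreted TGF-beta family ligand that binds activin receptors together with the co-receptor Cripto, which Tdgf1 encodes, and that signals through Smad2 and Smad3 with the DNA-binding partner Foxh1. Lefty1 and Lefty2 are secreted antagonists that the pathway itself induces, and Smad7 is an intracellular inhibitor of the receptors of this family. In the mouse embryo the pathway keeps the epiblast pluripotent, patterns it and is needed for the primitive streak, while in naive mESCs it is active but largely dispensable for self-renewal.

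The labelled cell type and its change over time were visible in marker genes. The summed level of 8 stem cell genes (the naive markers Nanog, Esrrb, Zfp42, Klf4, Tfcp2l1 and Tbx3, with Pou5f1 and Sox2, which the formative epiblast also expresses) in TX1072 was 6117 ± 363 CPM (SD, n = 3) at day 0 and 1023 ± 57.9 CPM at day 4. That of 5 markers of the formative epiblast (Fgf5, Otx2, Pou3f1, Dnmt3b and Dnmt3a) was 279 ± 35.7 CPM at day 0, 3098 ± 40.3 CPM at day 2 and 926 ± 92.6 CPM at day 4. The 6 markers of primitive and visceral endoderm, a tissue that also expresses Nodal antagonists, summed to 1.36 ± 0.354 CPM at day 0 and 5.13 ± 1.57 CPM at day 4, and Ttr was at 0 in every TX1072 library of days 0 to 3. The 5 fibroblast markers summed to 24.9 ± 4.30 CPM at day 0 and 122 ± 21.3 CPM at day 4, with Acta2 at 82.9 to 123 CPM making up most of the latter while Col3a1 stayed at 0.820 to 1.37 CPM. The 4 trophoblast markers summed to 77.6 ± 18.1 CPM at day 0, 10.7 ± 0.388 CPM at day 1 and 40.1 ± 2.30 CPM at day 4. Tfap2c, which made up most of that sum at day 0, went from 60.0, 76.7 and 54.5 CPM to 3.64, 3.73 and 2.52 CPM at day 1, the step at which Lefty2 and Smad7 fell, and Elf5 was at no more than 0.540 CPM on these days. The 3 neural markers summed to 41.3 ± 4.63 CPM at day 0 and lay between 119 and 141 CPM at day 4, nearly all of it Nes, with Sox1 and Pax6 at no more than 2.10 and 1.30 CPM at day 4. The part of these cell-type markers in the changes of the 6 genes was not tested, and in bulk RNA fewer cells of a type cannot be told apart from less RNA per cell.

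Some libraries stood apart from their replicates in the Lefty genes. In TXdXicB6 at day 1, Lefty1 was at 44.7 CPM in replicate 2 and at 7.49 and 8.50 CPM in the others, and Lefty2 was at 106 CPM against 20.1 and 14.6 CPM. These were the highest ratios to the mean of the other libraries (5.88 for Lefty2 and 5.09 for Lefty1) among 10836 genes compared, followed by the histone genes H2ac12 and H2ac13. The library did not differ broadly: 24 genes were more than 2-fold away from the mean of the other replicates, and the median over the 30 deletion-line libraries was 29.5. In TX1072, replicate 1 was the highest for both Lefty genes at day 1 (ratios 3.31 for Lefty1 and 1.90 for Lefty2) and at day 2 (2.58 and 3.14), and it was also the highest at day 3 (1.66 and 1.49). In TXdXicCast, replicate 1 was the highest for both Lefty genes at days 0, 2, 3 and 4, with ratios up to 1.93 and 1.80 (day 2). Lefty changes that rest on the TXdXicB6 library or on replicate 1 of TX1072 at days 1 and 2 are given with and without them. This choice was made after seeing the data, and levels and correlations are over all libraries.

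Lefty1 and Lefty2 lie next to each other on chromosome 1 (mm10, both on the plus strand, chr1:180935022-180938400 and chr1:180893108-180899103), each with 4 exon blocks. Their coding sequences are both 1107 bases long and 91.9% identical without a gap, so some reads cannot be told apart between the genes. The longest stretch without a difference is 140 bases long and runs across exons 2 and 3 of both genes. Of all 50-base windows of the transcripts, 17.9% of those of Lefty1 and 11.6% of those of Lefty2 occur in both, and of 100-base windows 4.80% and 3.07%. The study's methods state that bulk and single-cell counts rest on uniquely aligned reads, so reads that fit both genes equally were left out of these counts, and most windows belong to 1 gene alone.

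Nodal, on chromosome 10 (mm10, plus strand, chr10:61417972-61425338, 3 exon blocks), rose during differentiation in all 3 lines, with its step between days 1 and 2. In TX1072 it was at 70.0, 81.3 and 72.1 CPM in the 3 libraries of day 0, at 92.4, 88.3 and 79.6 CPM at day 1 and at 163, 153 and 159 CPM at day 2. Days 3 and 4 gave 208, 160 and 193 CPM and 189, 233 and 222 CPM. The libraries of days 0 and 1 overlapped, and every library from day 2 on was above all of them. From day 1 to day 2 the log2 fold change was 0.87 (SE 0.11, edgeR adjusted p = 8.87e-06), and from day 0 to day 4 it was 1.53 (SE 0.12, edgeR adjusted p = 2.29e-09), a 2.88-fold rise. The step of day 2 was of like size in the deletion lines, at 0.74 (SE 0.13) in TXdXicB6 and 0.86 (SE 0.13) in TXdXicCast, and was called in both. After day 2, no change of Nodal to the next day was called in any line.

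Gdf3, a ligand of the same family that also acts through Tdgf1, lies on chromosome 6 (mm10, minus strand, chr6:122605403-122610087, 3 exon blocks) and declined late. In TX1072 it was at 138, 186 and 161 CPM at day 0 and at 168, 192 and 181 CPM at day 1, and the groups overlapped. By day 4 it had reached 65.0, 95.1 and 103 CPM, below all 3 libraries of day 3 (138, 135 and 165 CPM). The fall from day 3 to day 4 was called in all 3 lines, with log2 fold changes of −0.74 (SE 0.15) in TX1072, −0.50 (SE 0.17) in TXdXicB6 and −0.66 (SE 0.17) in TXdXicCast. The call in TXdXicB6, with an edgeR adjusted p of 0.0421, was lost without replicate 2 (0.414), and so was that in TXdXicCast (0.129). In the deletion lines Gdf3 first rose from day 0 to day 1, from 118, 144 and 125 CPM to 208, 208 and 171 CPM in TXdXicB6 (log2 fold change 0.60, SE 0.17). The corresponding value was 0.96 (SE 0.17) in TXdXicCast, against its degraded day 0 libraries, and 0.16 (SE 0.15, not called) in TX1072. The call in TXdXicB6 was lost without replicate 2 (edgeR adjusted p = 0.0657). Between days 0 and 4 Gdf3 was called lower in TX1072 (−0.88, SE 0.15). It was not called in TXdXicB6 (−0.22, SE 0.17) or in TXdXicCast against its degraded libraries (−0.10, SE 0.17).

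Tdgf1, the co-receptor gene on chromosome 9 (mm10, minus strand, chr9:110939603-110946158, 7 exon blocks), rose within the first day. TX1072 had 425, 489 and 447 CPM at day 0 and 792, 708 and 741 CPM at day 1, a log2 fold change of 0.72 (SE 0.09, edgeR adjusted p = 5.90e-06) with no overlap between the days. The rise was 1.24 (SE 0.09) in TXdXicB6, from 303, 316 and 291 CPM to 739, 698 and 711 CPM, and 1.56 (SE 0.09) in TXdXicCast. From day 1 on Tdgf1 lay between 571 and 792 CPM in TX1072, between 527 and 835 CPM in TXdXicB6 and between 527 and 782 CPM in TXdXicCast. It fell from day 2 to day 3 in both deletion lines (−0.40 and −0.43, SE 0.09 each) and rose from day 3 to day 4 in TX1072 (0.33, SE 0.09) and TXdXicB6 (0.32, SE 0.09). These rises were lost when any 1 of the 3 replicates was left out of the fit, with edgeR adjusted p-values from 0.0547 to 0.181 in TX1072 and from 0.0571 to 0.162 in TXdXicB6.

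**Figure D1:**
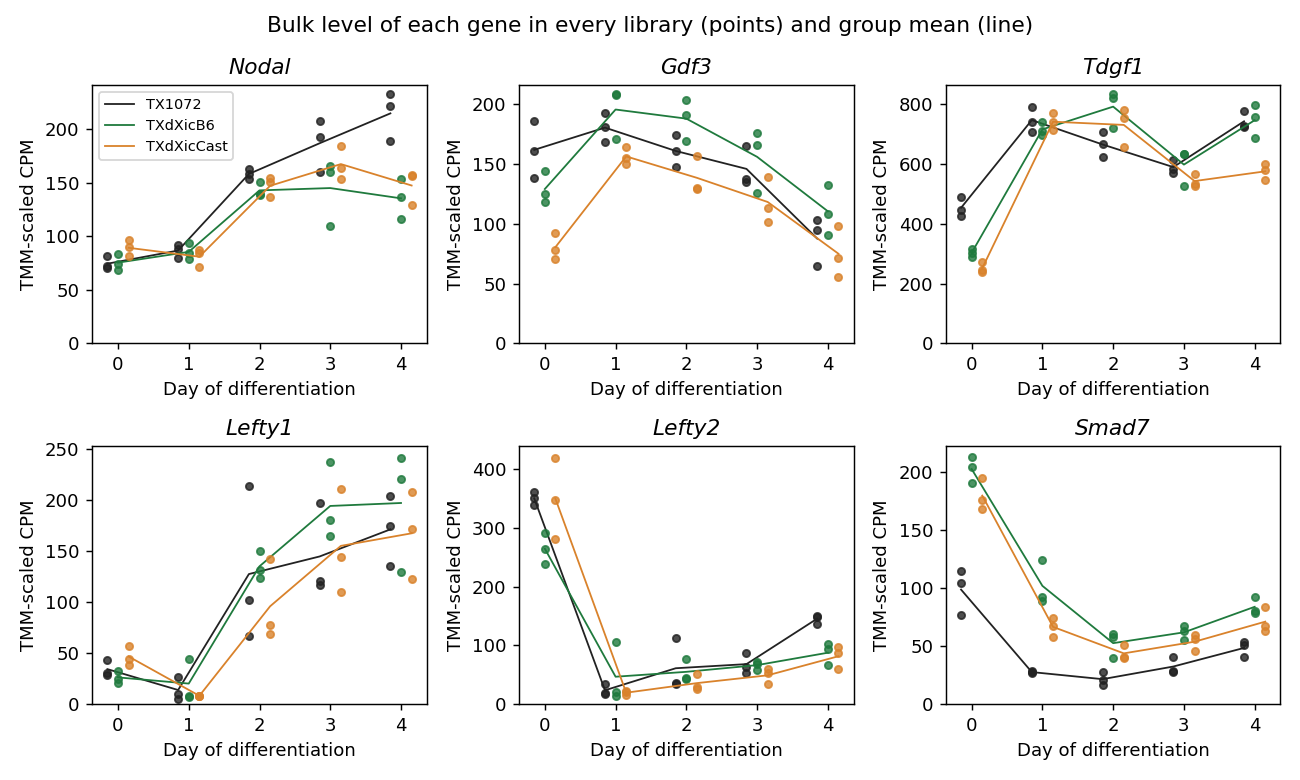
Bulk level of the 6 genes (y axis, TMM-scaled CPM, each panel with its own scale from 0) at days 0 to 4 (x axis), with a point for every library and a line through the mean of the 3 libraries; TX1072 was prepared with another kit than the deletion lines, so its height is not comparable with theirs. Nodal and Lefty1 are higher at day 4 than at day 0 in all lines, Lefty2 and Smad7 are lower, and replicate 2 of TXdXicB6 at day 1 is the high point in Lefty1 (44.7 CPM) and Lefty2 (106 CPM).

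Lefty2 fell most of the 6 genes on the first day and only partly returned. It stood at 351, 362 and 339 CPM in TX1072 at day 0 and at 35.2, 17.2 and 18.9 CPM at day 1, which is 14.8-fold lower (log2 fold change −3.88, SE 0.38, edgeR adjusted p = 1.72e-07). Without replicate 1 at days 1 and 2 this fall was −4.28. TXdXicCast dropped from 420, 282 and 347 CPM to 21.7, 21.5 and 15.6 CPM (−4.15, SE 0.48). TXdXicB6 dropped from 291, 239 and 264 CPM (−2.50, SE 0.44), and without its high replicate 2 the change was −3.93. In TX1072 the level then rose to 113, 36.2 and 34.5 CPM at day 2 (1.36, SE 0.35, edgeR adjusted p = 0.00482), with replicate 1 far above the others. Without replicate 1 at days 1 and 2 this rise was 0.97 (edgeR adjusted p = 0.000581), and within replicate 1 the next step was downward, from 113 to 87.7 CPM. With all libraries the change from day 2 to day 3 was 0.16 (edgeR adjusted p = 0.783). Without replicate 1 on any day it was a called rise of 0.73 (edgeR adjusted p = 0.0028), and 0.95 (edgeR adjusted p = 0.00057) where its high library of day 3 was kept. Day 4 gave 137, 149 and 151 CPM, above day 3 (1.09, SE 0.35, edgeR adjusted p = 0.0252) and still 2.40-fold below day 0. That last rise was lost with DESeq2 (adjusted p = 0.0647) and without replicate 2 (0.105) or replicate 3 (0.166). In TXdXicB6 the change from day 1 to day 2 was 0.24 (SE 0.42, not called) and became 1.344 (edgeR adjusted p = 0.00221) without replicate 2 on all days. It was 1.67 (edgeR adjusted p = 9.96e-05) without replicate 2 of day 1 alone, which keeps the highest library of day 2 (77.6 CPM, against 44.6 and 43.3 CPM). Within replicate 2 Lefty2 went from 106 to 77.6 CPM. In TXdXicCast it was 0.88 (SE 0.43, edgeR adjusted p = 0.120), and leaving the same TXdXicB6 library out of the shared fit brought this p to 0.00848. In that fit the rise of Lefty2 from day 3 to day 4 in TXdXicCast (0.73) was called as well (edgeR adjusted p = 0.0412, against 0.248).

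Lefty1 took another course: it was low in undifferentiated cells, fell further at day 1 and then rose above its starting level. Its libraries in TX1072 gave 31.1, 43.3 and 28.8 CPM at day 0, 26.6, 9.82 and 5.40 CPM at day 1, and 214, 102 and 66.7 CPM at day 2. The fall at day 1 (log2 fold change −1.31, SE 0.45, edgeR adjusted p = 0.0229) was lost with DESeq2 (adjusted p = 0.0663) and without replicate 2 (0.237) or replicate 3 (0.0894), and was −2.16 (edgeR adjusted p = 3.22e-05) without replicate 1 at days 1 and 2. The same drop was −2.49 (SE 0.45) in TXdXicCast, where day 1 libraries lay between 8.02 and 8.44 CPM. In TXdXicB6 it was −0.38 (SE 0.42, edgeR adjusted p = 0.491) with all libraries and −1.71 (edgeR adjusted p = 0.000112) without replicate 2. The rise from day 1 to day 2 was called in every line, at 3.19 (SE 0.47) in TX1072, 2.74 (SE 0.43) in TXdXicB6 and 3.54 (SE 0.46) in TXdXicCast. It was 3.46 in TX1072 and 4.08 in TXdXicB6 without the libraries that stood apart. At day 4 TX1072 had 136, 174 and 204 CPM, 4.98-fold above day 0 (edgeR adjusted p = 0.000228), and no later change from one day to the next was called in any line. Without replicate 2 of TXdXicB6 at day 1 in the shared fit, the change of Lefty1 from day 2 to day 3 in TXdXicCast (0.69) was called (edgeR adjusted p = 0.0485, against 0.219 with all libraries).

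Smad7, which blocks the activated receptors and is itself a target of TGF-beta family signalling, fell at the start and recovered in part. TX1072 had 76.9, 104 and 115 CPM at day 0, 28.3, 28.1 and 26.6 CPM at day 1 and 27.5, 16.5 and 20.7 CPM at day 2. The first step was 3.56-fold downward (−1.83, SE 0.19, edgeR adjusted p = 2.99e-07) without overlap of the groups. The level then rose to 40.6, 27.9 and 28.8 CPM at day 3 (0.59, SE 0.19) and to 40.2, 53.8 and 51.2 CPM at day 4 (0.58, SE 0.19). Those rises, with edgeR adjusted p-values of 0.0256 and 0.0274, were each lost without replicate 2 (0.105 and 0.212) and without replicate 3 (0.127 and 0.258). The change from day 1 to day 2 was −0.36 (SE 0.19, edgeR adjusted p = 0.139), and −0.55 without replicate 1, which was called where that replicate was left out on all days (edgeR adjusted p = 0.0108) and not where it was left out at days 1 and 2 (0.0608). It was also called without the filter on low counts (−0.40, edgeR adjusted p = 0.0236). In the deletion lines the fall from day 1 to day 2 was called with the filter as well. TXdXicB6 went from 204, 212 and 190 CPM over 92.4, 124 and 89.1 CPM to 57.4, 60.7 and 39.4 CPM, with steps of −0.99 (SE 0.15) and −0.95 (SE 0.15), both called. TXdXicCast had steps of −1.43 (SE 0.15) and −0.60 (SE 0.15), both called, the second not without replicate 2 (edgeR adjusted p = 0.0996). The rise from day 3 to day 4 was 0.44 (SE 0.15, edgeR adjusted p = 0.0459) in TXdXicB6, lost when any 1 replicate was left out. It was 0.40 (SE 0.15, edgeR adjusted p = 0.0623) in TXdXicCast, and passed with the replicate number as a block (edgeR adjusted p = 0.0241), with DESeq2 (adjusted p = 0.0466) and without the high TXdXicB6 library of day 1 (edgeR adjusted p = 0.0498).

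Differentiation changed much of the transcriptome, so the calls among members are given beside the share of all genes called, and no test of their number was made. In TX1072, 4 of the 6 members were called from day 0 to day 1 (1 higher, 3 lower), where 47% of all tested genes were called (23.5% higher, 23.4% lower). From day 1 to day 2 it was 3 (39.2% of all genes), from day 2 to day 3 it was 1 (26.7%), from day 3 to day 4 it was 4 (27.8%), and from day 0 to day 4 all 6 were called (3 higher, 3 lower), against 59.6% of all genes (30.2% higher, 29.4% lower). In TXdXicB6 the 4 steps called 4, 3, 1 and 3 members against 45.7%, 32.7%, 25.5% and 15.9% of all genes, and 5 members differed between days 0 and 4 (59.5%). In TXdXicCast the steps called 5, 3, 1 and 1 members against 58.9%, 35.9%, 27.3% and 19% of all genes, and 5 members differed between days 0 and 4 (69.8%). The TX1072 calls from day 2 to day 3 were 0 without replicate 2 or 3, and those from day 3 to day 4 were 1, while TXdXicB6 kept 0 of its 3 calls from day 3 to day 4 without replicate 2. Comparisons that use the same libraries, as those of day 1 and day 4 with day 0 do, are not independent of each other. With day 1 of TXdXicCast as the start, which leaves out the degraded libraries, 5 members differed at day 4 against 59.4% of all genes. Nodal was 0.86 and Lefty1 4.34 higher on the log2 scale, Lefty2 was 2.06 higher, and Gdf3 (−1.06) and Tdgf1 (−0.37) were lower.

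**Figure D2:**
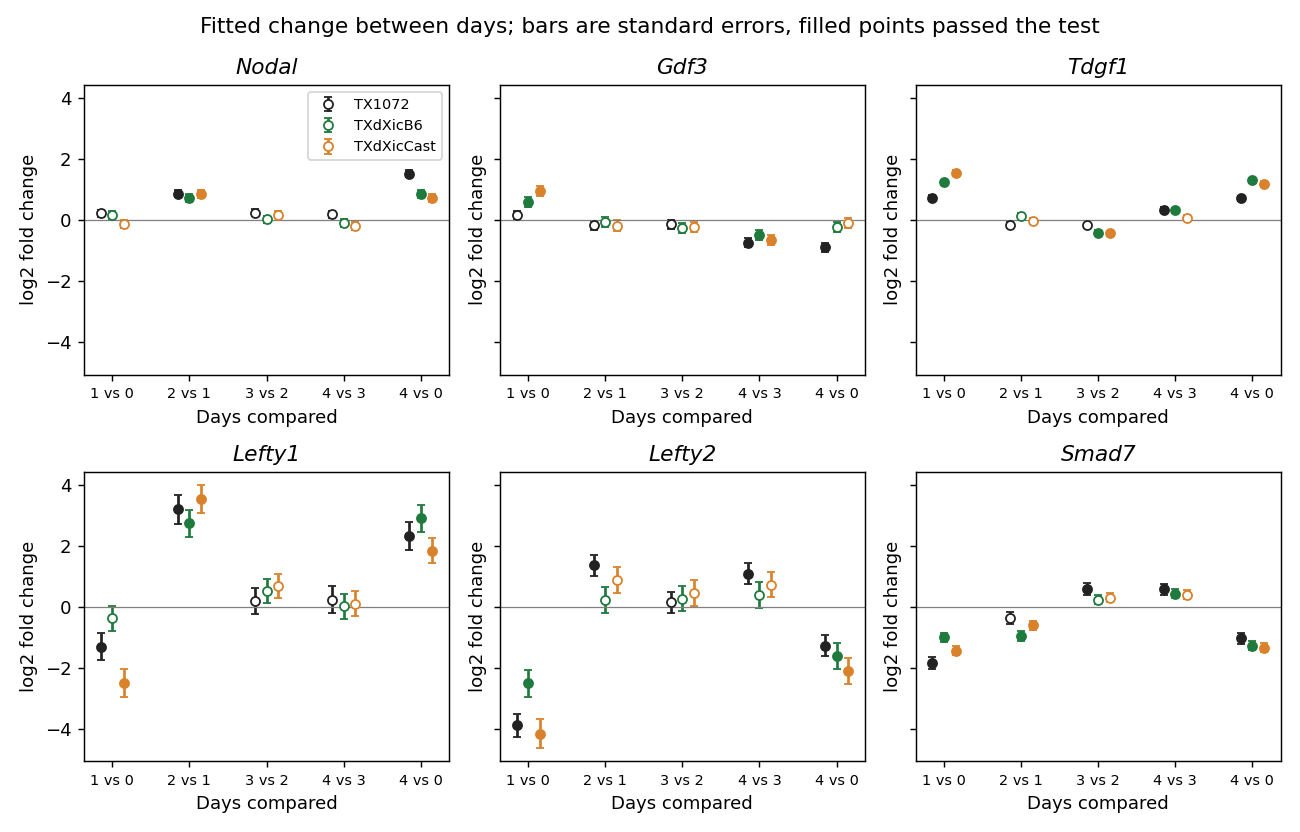
Fitted log2 fold changes (y axis, the same scale in all panels) of the 6 genes between consecutive days and between days 0 and 4 (x axis) in the 3 lines, with bars of 1 SE and filled points for changes that passed the adjusted p of 0.05. Among the steps from one day to the next, Lefty2 and Smad7 have their lowest points at day 1 against day 0 and Lefty1 its highest at day 2 against day 1 in every line; TXdXicCast comparisons with day 0 use the degraded libraries.

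Levels of different genes can be ordered after division by transcript length. At day 0 of TX1072, Tdgf1 (173 CPM per kilobase of exon) and Lefty2 (134) were followed by Gdf3 (66.8), Nodal (35.5), Smad7 (21.8) and Lefty1 (19.6), and the libraries of Smad7 and Lefty1 overlapped. At day 4 the order was Tdgf1 (283), Nodal (103), Lefty1 (97.5), Lefty2 (55.8), Gdf3 (36.2) and Smad7 (10.7), with overlapping libraries of Nodal and Lefty1. Lefty1 thus stood below Lefty2 at day 0 and above it from day 2 on, at 72.5 against 23.5 CPM per kilobase at day 2 and 82.4 against 26.2 at day 3. Replicate 1 carried much of the means of day 2, where the libraries were at 122, 57.8 and 37.9 CPM per kilobase for Lefty1 and at 43.3, 13.8 and 13.2 for Lefty2, and Lefty1 was above Lefty2 in each of them.

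Other genes of the pathway changed at every step. Of a list of 37, 34 were tested in TX1072, and 5 rose, 13 fell and 16 were not called from day 0 to day 1, with a median log2 fold change of −0.03 and 47% of all genes called. Foxh1, the transcription factor that recruits Smads to Nodal targets, rose from 17.6, 24.9 and 22.1 CPM to 82.5, 98.4 and 85.3 CPM (2.05). The convertases that cleave the Nodal precursor both fell, Furin by 2.19 and Pcsk6 by 0.95 on the log2 scale. Of the receptors, 3 of 6 tested fell, among them the type I receptor gene Acvr1b (−1.52) and Tgfbr2 (−1.81), and none rose. Genes of the primitive streak did not move as a block on that day. T (brachyury) went from 9.25, 11.9 and 10.7 CPM to 0.350, 0.223 and 0.334 CPM and Gsc fell by 5.22 on the log2 scale, while Eomes, a further streak gene, rose from 2.27, 3.56 and 2.97 CPM to 32.2, 34.7 and 31.0 CPM.

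From day 1 to day 2, the step at which Nodal rose, 11 genes of the list rose, 8 fell and 15 were not called (39.2% of all genes called). Cfc1, which encodes a second co-receptor of the Tdgf1 family, rose by 1.65 and Skil by 1.70 on the log2 scale, while Inhbb (−3.21), Pcsk6 (−1.81) and Eomes (−2.19) fell. From day 2 to day 3, 10 genes rose and 2 fell (26.7% of all genes called), with Tgfb2 3.28 and T 2.21 higher.

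By day 4 the balance of the list had turned, with 20 genes higher, 4 lower and 10 not called against day 0 in TX1072 (median 0.61; 59.6% of all genes called, 30.2% higher). Of the 6 streak genes 5 were higher, among them Eomes by 4.93, T by 3.46, Mixl1 by 4.26 and Foxa2 by 6.61 on the log2 scale. The secreted inhibitor gene Cer1, whose product binds Nodal, was at 0.0541, 0 and 0 CPM at day 0 and at 9.91, 1.14 and 1.05 CPM at day 4 and passed the test. Fst, which binds activins, was 4.04 higher, and Dand5 was not called (0.64). Pmepa1 and Skil, feedback inhibitors inside the cell, were 1.50 and 1.52 higher on the log2 scale. Smad6, the relative of Smad7 that acts mainly on BMP signalling, fell (−1.52), and so did Pcsk6 (−2.76), the activin subunit gene Inhbb (−2.53) and Acvr1b (−0.38). In TXdXicB6 17 of 35 tested genes were higher and 8 lower between these days (59.5% of all genes called), and in TXdXicCast 23 were higher and 7 lower (69.8%). Streak genes varied between libraries of day 4. T was at 181, 98.4 and 70.3 CPM in TX1072. In the deletion lines, prepared with another kit, it was at no more than 25.3 CPM in TXdXicB6 and at 18.7, 11.4 and 90.8 CPM in TXdXicCast. In TX1072 and TXdXicCast the library with most T was also the highest in Cer1, Mixl1 and Foxa2. The members followed no single order. The TX1072 library with most T had the lowest Nodal (189 CPM) and Lefty1 (136 CPM) of its group, the TXdXicCast library with most T had the highest Nodal of its group (157 CPM, beside 156 and 129 CPM), and Gdf3 was lowest in both (65.0 and 55.3 CPM).

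The 2 deletion lines, which differ in the X chromosome that lacks the X-inactivation centre, were compared on each day. At days 1, 2 and 3 no member differed between the lines by edgeR, where 0.402%, 0.372% and 1.26% of all genes were called. DESeq2 called 1 member at day 1 (Smad7) and none at days 2 and 3. The edgeR fit without the filter on low counts called Lefty1, Lefty2 and Smad7 at day 1, Lefty1 (−0.47) and Lefty2 (−0.60) at day 2 and Lefty2 (−0.45) at day 3, all lower in TXdXicCast. At an unadjusted p under 0.05 Lefty1, Lefty2 and Smad7 were lower in TXdXicCast at day 1 and Gdf3 was lower at days 2 and 3. For Lefty1 and Lefty2 at day 1 this rested on the high TXdXicB6 library. The log2 differences of −1.29 (SE 0.44) and −1.25 (SE 0.44) became 0.05 and 0.18 without it, although a fit without the filter on low counts gave adjusted p-values of 1.51e-16 and 5e-17 with the library included. Smad7 at day 1 was at 92.4, 124 and 89.1 CPM in TXdXicB6 and at 67.6, 73.9 and 58.0 CPM in TXdXicCast without overlap, a difference of −0.61 (SE 0.15, edgeR adjusted p = 0.0684). The adjusted p was 0.0114 with the replicate block and 0.0135 with DESeq2, and 0.756 without the high TXdXicB6 library, where the difference was −0.45.

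In the edgeR fit with the filter, all libraries and no block, Gdf3 and Tdgf1 were the members called between the lines. They were called at days 0 and 4 (19.8% and 5.86% of all genes called), both lower in TXdXicCast (9.9% and 1.85% of all genes). Gdf3 was lower in TXdXicCast by 0.68 (SE 0.17, edgeR adjusted p = 0.00508) at day 0, where the TXdXicCast RNA was degraded, and by 0.56 (SE 0.17, edgeR adjusted p = 0.0472) at day 4. On the days between, the differences were −0.32, −0.44 and −0.40 (SE 0.17 each), so Gdf3 had the same sign on all 5 days, as did Smad7 (−0.17, −0.61, −0.26, −0.20 and −0.24). At day 4 it was at 132, 108 and 91.0 CPM in TXdXicB6 and at 98.1, 71.7 and 55.3 CPM in TXdXicCast, and the groups overlapped. Within pairs of libraries with the same replicate number, Gdf3 was lower in TXdXicCast by 34.1, 36.6 and 35.8 CPM at day 4 and was lower in 15 of 15 pairs over the 5 days, which held for 0.583% of all tested genes. Smad7 was lower in 13 of the 15 pairs. The shares of all genes lower in so many pairs, or with the same sign on all 5 days, are not given here. The pairs repeat 3 replicate numbers of 1 clone a line and are not independent, so no line difference is read from these Smad7 counts. The day 0 call of Gdf3 was lost without replicate 2 (0.0609). The day 4 call was lost without replicate 2 (0.325) or replicate 3 (0.191) and, narrowly, without the high TXdXicB6 library of day 1 (0.0532). Tdgf1 was lower in TXdXicCast by 0.27 (SE 0.09, edgeR adjusted p = 0.0318) at day 0, lost when any 1 replicate was left out (0.0985 to 0.227) and without the filter (0.255). Lefty1 at day 0 was at 33.0, 25.1 and 20.9 CPM in TXdXicB6 and at 57.3, 38.6 and 44.3 CPM in TXdXicCast without overlap (0.83, SE 0.42, edgeR adjusted p = 0.171). It was called higher in TXdXicCast without replicate 2 (0.0495), without the high TXdXicB6 library of day 1 (0.0289) and without the filter (1.47e-08), which also called Lefty2 higher (0.43, 0.0116). Of the cell-type markers at day 0, Nes, Col1a2, Pou5f1 and Zfp42 were called higher in TXdXicCast. The neural markers summed to 36.8 ± 5.50 CPM in TXdXicB6 and 89.7 ± 24.8 CPM in TXdXicCast, nearly all of it Nes, and the fibroblast markers to 39.3 ± 5.77 and 62.2 ± 16.3 CPM, with Acta2 and Col3a1 near 0. The part of these markers in the differences of day 0 was not tested. At day 4 Tdgf1 was at 796, 686 and 757 CPM in TXdXicB6 and at 599, 547 and 581 CPM in TXdXicCast without overlap (−0.38, SE 0.09, edgeR adjusted p = 0.00939), a call lost when any 1 replicate was left out (0.104 to 0.165) and, narrowly, without the filter (0.0562). Markers of cell types also differed between the lines at day 4. The fibroblast markers summed to 48.5 ± 15.6 CPM in TXdXicB6 and 163 ± 47.8 CPM in TXdXicCast (SD, n = 3), with 3 of 5 called higher in TXdXicCast, most of the sum being Acta2 (138.7 CPM in TXdXicCast) while Col3a1 was at 0.586 CPM. The formative epiblast markers summed to 1496 ± 211 and 994 ± 275 CPM, with Otx2 and Dnmt3b, the most abundant, called lower in TXdXicCast. The 8 stem cell genes summed to 1242 ± 95.8 and 1025 ± 108 CPM, with 2 called higher and 1 lower in TXdXicCast. The trophoblast markers summed to 42.2 ± 2.24 and 55.1 ± 4.72 CPM, with 1 of 4 called higher. Of 5 endoderm markers tested, 1 was called higher. Replicate 3 of TXdXicCast at day 4 had 101 genes more than 2-fold away from the other replicates, the most of the 30 deletion-line libraries. The part of these markers and of this library in the Gdf3 and Tdgf1 differences was not tested beyond the fits that left out replicates. The change from day 1 to day 4 was not called as different between the lines for any member by edgeR (0.749% of all genes called). Of the 6, Tdgf1 alone had an unadjusted p under 0.05 (log2 difference −0.43, SE 0.12, unadjusted p = 0.00204, edgeR adjusted p = 0.123, DESeq2 adjusted p = 0.0349).

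The part of chromosome 6 that holds Gdf3 differed between the lines as a whole. An F1 hybrid carries strain variants that tell the parent of a read, and the B6 share of such allele-assigned reads over all autosomal genes had medians of 51.2%, 50.8% and 50.9% in TX1072, TXdXicB6 and TXdXicCast. In windows of 10 Mb along chromosome 6, chosen after the Gdf3 share had been seen, the 3 windows from position 120000001 on had median B6 shares of 45.4%, 43.0% and 42.1% over the 15 TXdXicB6 libraries. TXdXicCast had 54.5%, 51.7% and 50.0% and TX1072 had 54.5%, 54.2% and 51.2% in the same windows. The median log2 difference between the deletion lines over the genes of these windows, averaged over days 1 to 4, was −0.30, −0.24 and −0.29, against values between −0.04 and 0.14 in the other 12 windows. Gdf3 itself had a median B6 share of 37.2% (33.3% to 42.4%) in TXdXicB6, 46.5% (42.8% to 51.0%) in TXdXicCast and 52.2% (45.6% to 55.7%) in TX1072. Its neighbours Nanog and Phc1 were likewise at 41.1% and 38.8% in TXdXicB6 against 52.6% and 47.5% in TXdXicCast. The part of this regional difference in the Gdf3 difference between the lines was not tested.

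**Figure D3:**
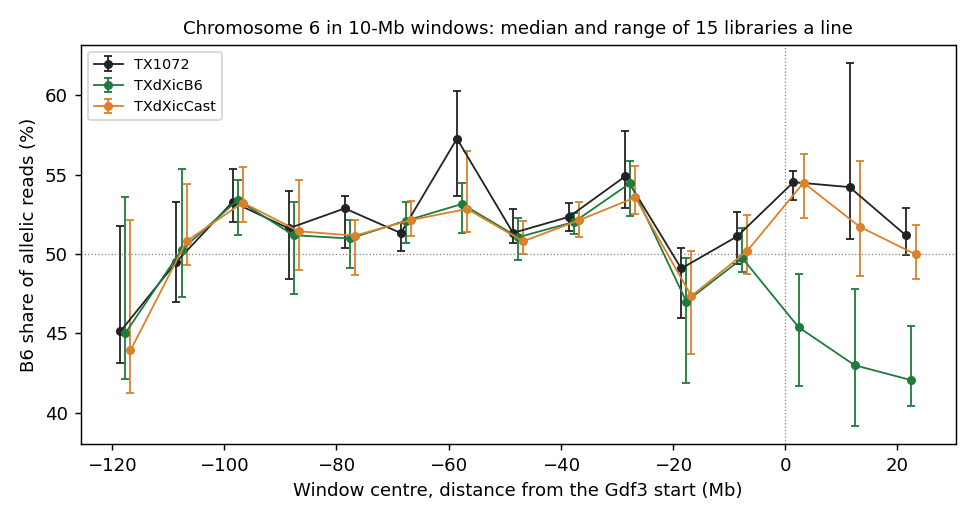
B6 share of allele-assigned reads (y axis, %) in 10-Mb windows of chromosome 6 against the distance of the window's centre from the Gdf3 start (x axis, Mb), with the median (point) and the range (bar) of the 15 libraries of each line and dotted lines at 50% and at Gdf3. TXdXicB6 lies apart from both other lines in the last 3 windows, with medians of 45.4%, 43.0% and 42.1%.

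The allelic balance of Nodal changed with time and did so alike in the 3 lines. The B6 share of Nodal in TX1072 was 60.1%, 59.8% and 60.9% at day 0. The libraries of day 1 gave 56.4%, 56.9% and 56.1%, and those of day 2 gave 52.0%, 47.3% and 48.0%. By day 4 it was 49.4%, 50.3% and 48.4%. The group means of days 0 to 4 were 60.1%, 55.6%, 49.8%, 50.8% and 51.8% in TXdXicB6 and 61.5%, 56.5%, 48.7%, 48.6% and 50.0% in TXdXicCast, with SDs between 0.259 and 2.07 points. Shares of days 0 and 4 did not overlap in any line, and those of day 1 lay between them in every library. Each of these shares rested on 222 to 6273 allele-assigned counts, and the autosomal sum stayed between 50.5% and 51.4% in all 45 libraries. Nodal was singled out after its values were seen, so no test was made. As background, among autosomal genes with at least 50 allele-assigned counts in each library of both days, a B6 share lower at day 4 by at least 5 points without overlap was found for 12.1% of 7542 genes in TX1072, 10.9% of 5097 in TXdXicB6 and 13.6% of 7954 in TXdXicCast.

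The other members had shares of their own. Tdgf1 was B6-biased in every library, between 64.4% and 76.0%, with medians of 72.4%, 70.2% and 69.2% in the 3 lines. Lefty2 was B6-biased as well, with medians of 62.7%, 66.4% and 66.2%, and its shares at day 4 (50.5% to 59.5% over the 9 libraries) were below those at day 0 (60.5% to 69.5%). Lefty1 had medians of 53.4%, 54.0% and 56.9% and lay between 47.6% and 50.9% at day 4. At day 0 its shares were higher without overlap in TX1072 (53.6% to 60.8%) and TXdXicCast (58.6% to 63.0%). In TXdXicB6 the shares of day 0 (49.5%, 56.2% and 57.9%) overlapped those of day 4. Smad7 had medians of 51.7%, 54.0% and 52.4%, on 81 to 3565 counts, and its share also moved with time. From day 1 to day 2 it went from 48.5%, 48.9% and 46.6% to 54.6%, 57.4% and 55.2% in TX1072 and from 49.1%, 47.4% and 51.0% to 59.2%, 58.4% and 58.6% in TXdXicB6. In TXdXicCast it went from 52.4%, 50.2% and 50.8% to 57.4%, 54.9% and 56.2%. The days did not overlap in any line, and a share higher at day 2 without overlap was found for 13.5%, 12.6% and 13.1% of autosomal genes in the 3 lines. By day 4 the share of Smad7 was between 45.6% and 54.0% again. Gdf3 moved the other way, with a higher share at day 4 than at day 0 without overlap in all 3 lines. It went from 45.6% to 50.6% up to 52.4% to 55.7% in TX1072. In TXdXicB6 it went from 33.3% to 35.2% up to 35.5% to 42.4%, and in TXdXicCast from 45.0% to 45.4% up to 47.8% to 51.0%. The share of autosomal genes with such a rise is not given here. Shares lower at day 4 without overlap were found for 16.9%, 17.1% and 19.8% of autosomal genes in the 3 lines. Lefty2 met this in all 3 lines and Lefty1 in TX1072 and TXdXicCast. Tdgf1 met it in TX1072 alone, with 74.4% to 76.0% at day 0 and 68.1% to 70.5% at day 4. Smad7 met it in TXdXicCast alone, with 51.6% to 53.9% at day 0 and 45.6% to 50.2% at day 4.

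**Figure D4:**
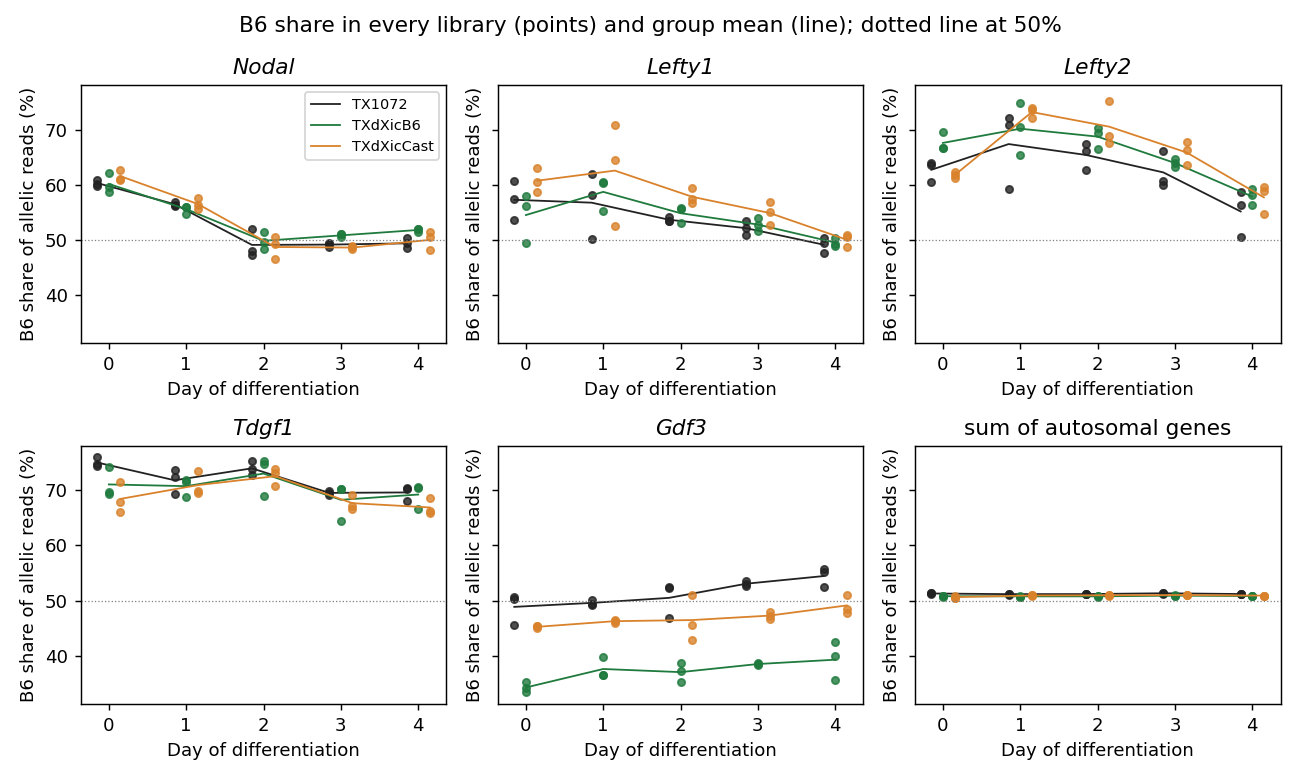
B6 share of allele-assigned reads (y axis, %) at days 0 to 4 (x axis) for 5 members and for the sum of all autosomal genes, with a point for every library, a line through the mean of 3 and a dotted line at 50%. Nodal moves from about 60% at day 0 to near 50% from day 2 on in all lines, and Tdgf1 lies between 64.4% and 76.0%. Gdf3 in TXdXicB6 lies between 33.3% and 42.4%, and its share is higher at day 4 than at day 0 in all lines.

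Among 10923 genes with a mean of at least 5 CPM, those whose log2(CPM + 1) over the 15 TX1072 libraries was most like that of a member were named by Pearson's r. The libraries share their days, so high values of r mark a like time course. For Nodal they were Cnr1 (0.987), Zfp618 (0.985) and Plxnb1 (0.985), and over the 30 deletion-line libraries, which played no part in the choice, the values were 0.919, 0.881 and 0.888. For Lefty1 they were Ap3b2, Spats2 and Dusp10 (0.952 to 0.955; deletion lines 0.964, 0.849 and 0.911). Those of Lefty2 were Lhfpl2, Mgat5 and Gata2 (0.945 to 0.962; deletion lines 0.904, 0.893 and 0.888), and those of Smad7 were Letmd1, Chmp4c and Idh1 (0.960 to 0.965; deletion lines 0.872, 0.909 and 0.854). The partners of Gdf3 carried over less well, and so did Wdr55 among those of Tdgf1. Nefh, Zbtb21 and Platr16 had 0.917 to 0.939 with Gdf3 in TX1072 and 0.202, 0.394 and 0.674 in the deletion lines. Wdr55, Nhlrc3 and Cntfr had 0.931 to 0.934 with Tdgf1 in TX1072 and 0.229, 0.828 and 0.911 in the deletion lines. Between members, r was 0.863 for Nodal with Lefty1 (0.833 in the deletion lines) and 0.870 for Lefty2 with Smad7 (0.766), while Lefty1 with Lefty2 gave 0.347 (0.232).

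Single cells were profiled by counting unique molecular identifiers (UMIs) at the 3′ end of transcripts, which makes levels of different genes comparable without a length. Levels are given as UMI CPM, a gene's share of all UMIs of a day on the CPM scale. Of 400 capture sites a day, 277, 325, 341, 257 and 272 cells of days 0 to 4 were kept by the study (1472 of 2000), with a median of 138565, 124651, 125591, 130377 and 171158 UMIs. There was 1 culture per day, the population of bulk replicate 1 of TX1072, so intervals below cover counting error only and no difference between days was tested. The libraries of day 1 alone were sequenced in 2 runs, and how the runs were merged into the table of UMIs is not given in the sources used here, so the part of sequencing in the differences of day 1 from other days was not tested. Nodal rose from 57.8 UMI CPM (95% Poisson interval 55.4 to 60.2) at day 0 over 100.0, 135 and 158 to 166 (163 to 170) at day 4. Bulk replicate 1 of the same population had 70.0 CPM at day 0 and 92.4 CPM at day 1. Tdgf1 was at 336, 678, 507, 520 and 683 UMI CPM and Gdf3 at 251, 319, 290, 271 and 162. Lefty2 dropped from 344 (338 to 350) to 25.7 (24.2 to 27.3) at day 1 and was at 133 (129 to 136) at day 4. Smad7 was at 112, 36.5, 30.4, 48.7 and 55.2. Lefty1 went from 43.3 at day 0 over 27.8 at day 1 and 214 at day 2 to 403 (397 to 410) at day 3 and 289 (284 to 294) at day 4, and so was highest at day 3. Bulk replicate 1 was at 214, 197 and 136 CPM on days 2, 3 and 4 and so was highest at day 2. The spread over the 10 capture columns of a day was wider than the counting interval, for Lefty1 from 269 to 539 at day 3 and from 149 to 415 at day 4.

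At day 1 the ligands and the co-receptor were seen in most cells, whereas the Lefty genes were seen in few. There, 325 of 325 cells had a Tdgf1 UMI (exact binomial interval 98.9% to 100%), 323 a Gdf3 UMI and 265 a Nodal UMI (81.5%, 76.9% to 85.6%). In the same cells Lefty1 was seen in 75 (23.1%, 18.6% to 28.0%) and Lefty2 in 93 (28.6%, 23.8% to 33.9%). For a measure of stray UMIs, Afp, an endoderm marker, was seen in 4.00% and T in 0% of the cells of day 1. The 10% of cells with most UMIs of a gene held 81.7%, 85.2%, 62.5%, 50.2% and 50.0% of all Lefty1 UMIs on days 0 to 4, but 25.2%, 21.4%, 25.9%, 29.5% and 26.0% of those of Tdgf1 and 36.6%, 36.4%, 35.1%, 31.4% and 31.9% of those of Nodal. For Lefty2 that share was 32.9% at day 0, when the gene was high and seen in 96.4% of cells, and 76.9% at day 1. At day 3 the median cell had 84.4 UMI CPM of Lefty1, the 90th percentile was 1449 and the cell with most Lefty1 held 528 UMIs. A gene at a low level can be seen in fewer cells, and the part of level in this contrast was not tested. At like levels, Lefty1 at day 4 (289 UMI CPM) was seen in 84.2% of cells and Gdf3 at day 2 (290 UMI CPM) in 96.8%, at medians of 171158 and 125591 UMIs a cell. After thinning every cell to 40000 UMIs these were 66.6% and 94.7%.

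**Figure D5:**
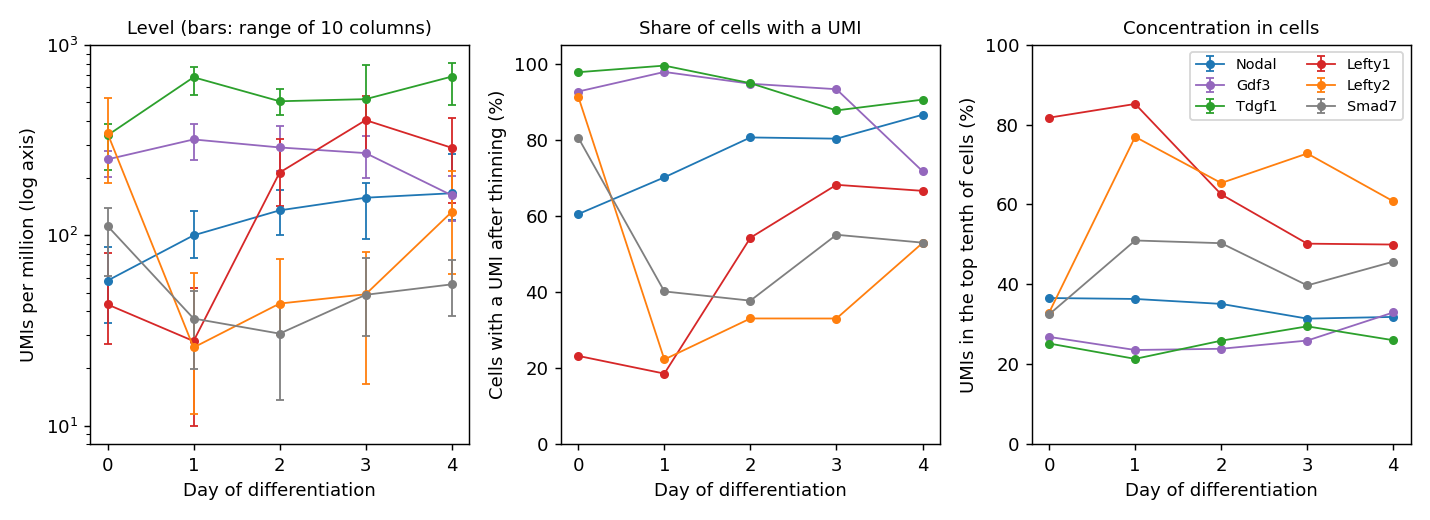
Single cells of TX1072 at days 0 to 4 (x axes): UMI CPM over all kept cells with the range of the 10 capture columns (left, log axis), share of cells with a UMI after thinning to 40000 UMIs a cell (middle, %), and share of a gene's UMIs in the 10% of cells with most of them (right, %). Lefty1 holds 85.2% of its UMIs in those cells at day 1 and 50.0% at day 4, and Tdgf1 between 21.4% and 29.5% on all days.

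In the cells of days 1 to 3, Lefty2 was seen in a higher share of those with Lefty1 than of those without, and no test was made. At day 1 Lefty2 was seen in 57.3% of the 75 cells with Lefty1 (exact binomial interval 45.4% to 68.7%) and in 20.0% of the 250 without (15.2% to 25.5%), at medians of 122805 and 124843 UMIs. On day 2 these shares were 50.7% (43.9% to 57.4%) and 26.3% (18.6% to 35.2%), and on day 3 they were 50.0% (42.9% to 57.1%) and 28.1% (17.0% to 41.5%). The intervals, which cover counting error only, overlapped on day 4, at 68.1% (61.7% to 74.1%) and 65.1% (49.1% to 79.0%). This pair is 1 of 12 pairs of genes looked at on each of 5 days, and its shares at day 0 are not given here. Cells with Nodal differed less, with Lefty1 in 24.2% of the cells with Nodal (19.1% to 29.8%) and 18.3% of those without (9.52% to 30.4%) at day 1, at medians of 126260 and 116910 UMIs. A gap was not particular to the Lefty pair. At day 2 Nanog was seen in 39.0% of the cells with Lefty1 (32.6% to 45.8%) and 17.8% of those without (11.4% to 25.9%). On days 1, 3 and 4 the intervals of Nanog overlapped. These cells came from 1 culture and are not replicates of a day.

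Reads from introns were counted apart as unspliced UMIs, which reflect recent transcription as far as the 3′ protocol captures them. The unspliced share of Smad7 was 6.96% (exact binomial interval 6.25% to 7.72%) in undifferentiated cells and 8.56% on day 1. It was 2.58% (1.80% to 3.59%) on day 2 and 8.61% on day 4. That of Nodal was 0.440% (0.211% to 0.807%) at day 0 and 1.98% (1.68% to 2.32%) at day 4, and that of Tdgf1 was 3.56%, 2.17%, 2.11%, 2.19% and 3.62% on days 0 to 4. Shares of Smad7 and Nodal on the remaining days are not given here, so no full course is read from them. Lefty1 is listed at 0 in both the spliced and the unspliced table on days 0 and 1 although the main table holds 1696 and 1152 of its UMIs. Between 1018 and 1140 genes with at least 100 UMIs are listed in that way on each day, so no unspliced share is given for Lefty1 on those days.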

How the data were processed

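Bulk RNA was sequenced from 45 libraries and single-cell RNA from 1472 kept cells of 2000 capture sites. The authors aligned reads with STAR 2.5.2b to the mouse genome (mm10, GRCm38), counted bulk reads per gene with featureCounts and single-cell UMIs with the Drop-seq pipeline, and deposited raw counts, also split by allele, and UMI counts per cell, also as spliced and unspliced tables. Tables of single-cell counts by allele were not used here. TX1072 and the deletion lines were fitted separately with edgeR 4.0.16 in R 4.3.3 (filterByExpr, TMM, quasi-likelihood test, Benjamini-Hochberg over all genes, threshold 0.05), with a mean for each line and day and no block. All 6 members, the list of 37 pathway genes and, for each member, the 3 genes with the highest r (at least 5 CPM, log2 of CPM + 1) were named by rule. Members and lists were chosen with earlier results of these data known.

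Total counts ranged from 16906263 to 57920260 per bulk library. Replicate numbers mark separate days on which differentiation was started, per the study's methods; deviations from group means had a median correlation of 0.185 between libraries of TX1072 with the same number and −0.104 between others, and of 0.209 and −0.141 in the deletion lines. Alternatives were DESeq2 1.42.0, its size factors, no filter, the replicate block, each replicate left out and, chosen after seeing the data, the libraries that stood apart left out. On data simulated for the first day in TX1072, edgeR (18152 genes) and DESeq2 (18871 genes) each recovered 97.5% of 200 changed genes. Of their calls 6.25% and 10.6% were false, and for TXdXicB6 (18788 and 19885 genes) the false shares were 5.34% and 7.58%. In these simulations the changed genes were well counted and moved by large steps, all other genes were unchanged, and every gene had the same spread. The rates therefore do not cover small changes or genes with a wide spread between replicates, such as the Lefty genes.

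Kept cells were those of the study's list. Doublets were not called here. UMIs were summed over cells and divided by the day's total, with 95% Poisson intervals, and shares of cells have exact (Clopper-Pearson) intervals, both for counting error only. Python 3.11.15, numpy 2.4.6, scipy 1.17.1, Biopython 1.88 and matplotlib 3.10.9 were used. Allele shares are B6 counts over both alleles' counts, and the windows, neighbours, gene pairs and the minimum of 50 allelic counts were chosen after values were seen. Lefty transcripts were compared in the GRCm38 genome with its annotation. Some genes and sequences are not reported here.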

Additional observations from a re-analysis of the deposited data

Results flagged for a closer look

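In the single-cell data, 1 of the 10 capture columns of a day lay apart from the others for 3 of the 30 combinations of member and day looked at, and chance alone gives about 1 in 20. Nodal at day 3 was at 95.7 UMI CPM in its lowest column, Gdf3 at day 0 was at 202 in its lowest column and Tdgf1 at day 3 was at 789 in its highest.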

How the results depend on the processing

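Of 1014 log2 fold changes of members under alternatives, 906 kept direction and side of the threshold, 42 passed newly, 37 no longer passed and 29 changed sign. All 270 allele shares with a replicate left out stayed within the SD of the replicates. With 3 libraries a group they cannot leave it, so this says nothing on their stability. Among single-cell values, 22 of 60 levels and 26 of 30 shares of cells moved beyond the interval, the shares under thinning, which removes UMIs. Tdgf1 in TXdXicCast from day 1 to day 2 (−0.02) became 0.0101 with DESeq2, 0.0102 with its size factors and 0.00391 without a filter. With day 1 in place of day 0, day 4 of TXdXicCast gave −0.37 for Tdgf1, 2.06 for Lefty2 and 0.10 for Smad7 (1.19, −2.10 and −1.33 before). The replicate block called 2 members in TXdXicCast from day 3 to day 4 (1 before) and 1 between lines at day 1 (0 before), and 124, 447 and 1772 genes between lines at days 2, 3 and 4 (74, 251 and 1165) and 255 for the change from day 1 to day 4 (149); it changed no other member's call. DESeq2 called 2 members in TXdXicCast from day 3 to day 4, 1 between lines at day 1 and 1 for the change, with 140, 136 and 498 genes at days 1, 2 and 3 (80, 74 and 251) and 349 for the change. Without a filter 2 members were called in TXdXicB6 and 3 in TXdXicCast from day 2 to day 3, 3 in TXdXicCast from day 3 to day 4, 3, 2, 1 and 1 between lines at days 1 to 4 and 2 for the change, with 198, 200 and 575 genes at days 1 to 3 and 412 for the change; the Lefty calls at day 1 among these rest on 1 library, and the member called at day 4 was Gdf3. The cause of these differences was not tested.

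Leaving out replicates or the libraries that stood apart gave, for members called, 0 to 2 (TX1072 day 3 against 2), 1 to 4 (TX1072 day 4 against 3), 1 to 2 (TXdXicCast day 3 against 2), 0 to 3 (TXdXicB6 day 4 against 3), 1 to 3 (TXdXicCast day 4 against 3), and between lines 1 to 3 at day 0 and 0 to 1 at day 4. Genes called were 2590 to 4313 (TX1072 day 3 against 2), 2636 to 4938 (TX1072 day 4 against 3), 4657 to 7126 (TXdXicCast day 2 against 1), 2069 to 4979 (TXdXicB6 day 3 against 2), 3148 to 5390 (TXdXicCast day 3 against 2), 800 to 3090 (TXdXicB6 day 4 against 3) and 1568 to 3698 (TXdXicCast day 4 against 3). Between lines they were 791 to 3849, 2 to 29, 0 to 72, 10 to 219 and 342 to 1105 at days 0 to 4 and 0 to 44 for the change. Fewer libraries enter these fits. Changes that crossed 0 were Lefty1 (−0.0111 to 0.78) and Lefty2 (−0.0604 to 0.95) in TX1072 at day 3 against 2, Lefty1 in TX1072 (−0.0186 to 0.67), TXdXicB6 (−0.20 to 0.15) and TXdXicCast (−0.0817 to 0.26) at day 4 against 3, and Lefty1 in TXdXicB6 at day 1 against 0 (−1.78 to 0.18). At day 2 against 1 they were Gdf3 (−0.0680 to 0.0175) and Lefty2 (−0.0310 to 1.67) in TXdXicB6 and Tdgf1 in TXdXicCast (−0.0646 to 0.11), then Nodal in TXdXicB6 at day 3 against 2 (−0.11 to 0.14) and Gdf3 in TXdXicCast at day 4 against 0 (−0.41 to 0.0632). Between lines they were Tdgf1 (−0.0141 to 0.0808), Lefty1 (−1.70 to 0.0471) and Lefty2 (−1.69 to 0.18) at day 1, Nodal at days 2 (−0.0158 to 0.15) and 4 (−2.7e-05 to 0.22), and Lefty1 (−0.31 to 1.65) and Lefty2 (−0.28 to 1.57) for the change. With 3 libraries a group and 1 culture a day in single cells, small changes could not be told from spread.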

Other observations

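Pathway genes other than the members were also compared between the deletion lines. Of 35 tested, edgeR called none at days 1, 2 and 3, when it called 0.402%, 0.372% and 1.26% of all genes. At an unadjusted p under 0.05 there were 3, 2 and 5, and DESeq2 called Inhbb at day 1, none at day 2 and Tgfb2 at day 3. At day 4 edgeR called 1 of 35, against 5.86% of all genes: Tgfb2, a ligand of the family's TGF-beta branch, was 1.28 higher in TXdXicCast on the log2 scale (edgeR adjusted p = 0.0313). On that day 12 of the 35 had an unadjusted edgeR p under 0.05, and DESeq2 called 2. At day 0, where the TXdXicCast RNA was degraded and 19.8% of all genes were called, 6 were called: Tgfbr1, Smad2, Smad4, Trim33 and Smurf2 were lower and Drap1 was higher.

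In TX1072 the step from day 3 to day 4 raised more of the pathway list than it lowered (16 higher, 2 lower and 16 not called of 34, with 27.8% of all genes called). Tgfbr2 rose by 1.94, Pmepa1 by 1.48 and Furin by 1.40 on the log2 scale, and Skil (−0.97) and Trim33 (−0.59) fell. T was seen in 0 of 325 single cells at day 1 and in 56.6% of 272 at day 4.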
